A study of Homo sapiens with 16 samples.

Results

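The regions described here are the ZBTB7A regions listed in K562 cells only. They are the unique ZBTB7A regions of the K562 list on the standard chromosomes other than chromosome 11 that no region of the 3 HUDEP-2 lists overlapped by 1 bp or more. There were 4953 of them among 16332 K562 regions (30.3%). They were split by position: 1353 had their midpoint within 1 kb of the start of a protein-coding (NM) transcript and are called promoter regions, and 3600 lay outside promoters. The members were thus chosen by the measured positions of regions in the 4 deposited lists, and the lack of overlap with HUDEP-2 is the definition and not a finding.

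Chromatin immunoprecipitation with sequencing (ChIP-seq) was used to map the transcription factors ZBTB7A and BCL11A in 2 human cell lines, with 8 ChIP and 8 control libraries. ZBTB7A was mapped in K562 cells, an unedited line from a chronic myeloid leukaemia that carries the BCR-ABL fusion and makes embryonic and fetal globins (4 ChIP libraries), from which 1 list of regions was deposited. It was also mapped in HUDEP-2 cells, an immortalised erythroid progenitor line from umbilical cord blood that makes mostly adult globin. The HUDEP-2 ZBTB7A lists come from cells labelled ΔGγ with a WT promoter and from ΔGγ cells with the 195C>G promoter change (1 ChIP library each), and whether each was 1 clone is not known here. BCL11A was mapped in HUDEP-2 cells with an added BCL11A-ER-V5 fusion after 24 h of 1e-07 M 4-hydroxytamoxifen (2 ChIP libraries), so that list reports the tagged protein. The sample titles call the controls input and the antibody labels name IgG, and which applies is not known.

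ZBTB7A, also called LRF, is a zinc-finger repressor that helps to silence the γ-globin genes in adult red cells, in part through the NuRD chromatin complex, and that is needed for red cell maturation. It binds GC-rich DNA at promoters and enhancers of many genes. BCL11A is another zinc-finger repressor of γ-globin, which binds a different site of the same promoter. K562 cells and HUDEP-2 cells represent different states of the erythroid lineage, and they also differ in origin, karyotype and culture medium.

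Printed below are 6 promoter sequences with a K562-only region, picked as examples and not as typical of the set. Each is the stretch of 250 bases just before the gene's start in the RefSeq promoter table (GRCh38.p14), overlapped in whole or in part by a K562-only region, written 5′ to 3′ on the strand of the gene. Capitals mark GATA motifs (AGATAA or TGATAA) in KEL, a GC box (GGGCGG or its reverse complement) in CTCFL, and the ZBTB7A core (GACCC or its reverse complement) in the other promoters. KEL and CTCFL are shown because they rank high and are poor in CpG, TMEM198 and NYAP1 because they hold the first ranks, JAG2 for the Notch pathway and RPL10A for the ribosome. Neither the KEL nor the CTCFL stretch holds the ZBTB7A core on either strand.
KEL (chr7:142962364-142962613, - strand): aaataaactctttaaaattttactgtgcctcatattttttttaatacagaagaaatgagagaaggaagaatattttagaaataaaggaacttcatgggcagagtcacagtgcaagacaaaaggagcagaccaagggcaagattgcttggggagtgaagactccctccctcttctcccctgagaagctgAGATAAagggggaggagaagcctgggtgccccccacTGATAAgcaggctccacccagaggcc
CTCFL (chr20:57525653-57525902, - strand): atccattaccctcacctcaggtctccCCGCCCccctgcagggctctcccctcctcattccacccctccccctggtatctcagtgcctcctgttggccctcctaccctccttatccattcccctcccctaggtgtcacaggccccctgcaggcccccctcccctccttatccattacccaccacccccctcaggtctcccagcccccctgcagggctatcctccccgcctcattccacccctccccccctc
TMEM198 (chr2:219543413-219543662, + strand): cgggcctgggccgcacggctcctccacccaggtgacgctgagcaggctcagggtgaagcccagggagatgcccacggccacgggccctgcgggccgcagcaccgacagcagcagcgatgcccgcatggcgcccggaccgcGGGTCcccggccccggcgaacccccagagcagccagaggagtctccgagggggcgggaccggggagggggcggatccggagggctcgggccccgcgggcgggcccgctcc
NYAP1 (chr7:100483677-100483926, + strand): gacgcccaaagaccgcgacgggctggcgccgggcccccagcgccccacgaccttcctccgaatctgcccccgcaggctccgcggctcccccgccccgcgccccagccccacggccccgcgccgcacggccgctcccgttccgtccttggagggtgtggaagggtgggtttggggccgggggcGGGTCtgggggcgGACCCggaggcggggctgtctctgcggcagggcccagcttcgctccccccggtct
JAG2 (chr14:105168777-105169026, - strand): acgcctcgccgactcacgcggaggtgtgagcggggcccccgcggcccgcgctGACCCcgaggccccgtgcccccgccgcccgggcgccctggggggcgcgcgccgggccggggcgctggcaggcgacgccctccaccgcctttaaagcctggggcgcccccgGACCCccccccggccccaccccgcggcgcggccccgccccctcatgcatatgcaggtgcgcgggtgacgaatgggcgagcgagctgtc
RPL10A (chr6:35468151-35468400, + strand): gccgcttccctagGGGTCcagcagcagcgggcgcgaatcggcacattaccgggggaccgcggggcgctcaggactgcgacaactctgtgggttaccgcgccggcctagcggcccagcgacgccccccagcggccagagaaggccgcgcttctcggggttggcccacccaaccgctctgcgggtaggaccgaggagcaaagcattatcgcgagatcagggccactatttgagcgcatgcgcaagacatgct
The K562-only region covered all 250 bases in KEL, CTCFL and RPL10A, but 125 in JAG2, 149 in NYAP1 and 52 in TMEM198. Both KEL matches, the CTCFL match, the RPL10A match and 1 of the 2 JAG2 matches lay inside the region. The other JAG2 match, both NYAP1 matches and the TMEM198 match lay outside it, in the promoter beside it.
The KEL stretch had 45.2% G and C, no CpG and 2 GATA matches, both in the part nearest the start. The CTCFL stretch had 66.4% G and C with 2 CpG. The TMEM198, NYAP1 and JAG2 stretches had 78.8%, 78.8% and 81.6% G and C, with 28, 31 and 38 CpG, as is typical of CpG islands. The RPL10A stretch had 67.6% G and C and 27 CpG.

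The lists were made in different ways, which bounds what absence from a list can mean. The K562 and BCL11A lists are each made from pooled replicates with IDR, which retains regions of reproducible rank (irreproducible discovery rate), and the WT and 195C>G lists each come from 1 library called with the ChIP-seq peak finder SPP. Off chromosome 11 they hold 16332 K562, 34582 WT, 17790 195C>G and 12245 BCL11A regions, with median widths of 349 bp, 644 bp, 600 bp and 370 bp. The files used here hold no read counts, so depth is unknown, and the regions have no value per library. Intervals below are exact 95% Clopper-Pearson intervals for counting error only, because regions of 1 list are not replicates of a cell type. The K562 list gives no value per region either, and a region's place in that list, from 1 to 16332, is used as its rank. That the list runs from stronger to weaker regions is an assumption that no file header states.

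One property of the HUDEP-2 ZBTB7A lists bears on membership directly. The deposited annotation places 734 NM genes off chromosome 11 also on an alternate contig of the genome and 18 on both X and Y, 751 genes in all, here called genes with a second copy. Of K562 regions whose nearest gene has a second copy, 394 of 564 (69.9%, interval 65.9% to 73.6%) were K562-only, against 4559 of 15768 other K562 regions (28.9%, interval 28.2% to 29.6%). WT regions overlapped 8.51% of the K562 regions near such genes and 64.5% of the others, and 195C>G regions overlapped 4.61% and 47.7%. BCL11A regions, from a list made another way, overlapped 23.6% and 24.3% of the same 2 sets, and their intervals overlap. By overlap of K562 regions, the shortfall near genes with a second copy was therefore seen in the WT and 195C>G lists and not in the BCL11A list. Counted by gene, BCL11A regions touched the 1 kb around a start in 18.4% of genes with a second copy and 25.4% of others. These intervals do not overlap (15.7% to 21.3% and 24.8% to 26.1%). For WT the shares were 3.86% and 48.3%, so the BCL11A shortfall by gene was much smaller.

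The clearest case was the major histocompatibility complex. Between chr6:28492205-33571123, a stretch of 5.08 Mb, there was no WT or 195C>G region at all, while the K562 list had 174 regions there, 134 of them K562-only, and the BCL11A list had 74. Of the 171 NM genes in it, 168 have a second copy. Members near genes with a second copy made up 7.95% of all members, and among the genes named below they include GABBR1, KEL, MSH5, MYOM2, NCR1, IER3, HMOX2, TRIM27, ZBED9 and PLCXD1. For these genes, absence from the HUDEP-2 ZBTB7A lists cannot be told apart from regions missing from those lists near annotated second copies.

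K562-only regions were less often at promoters than the rest of the K562 list. Of the members 27.3% (interval 26.1% to 28.6%) were promoter regions, against 51.8% (50.8% to 52.7%) of the other 11379 K562 regions. Turned round, 18.7% of K562 promoter regions and 39.6% of K562 regions outside promoters were K562-only. Without regions near genes with a second copy the promoter share was 26.5%. Distal ZBTB7A regions of K562 were thus the larger source of members.

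K562-only regions became more frequent down the K562 list. In the first decile of the list 13.3% of regions were K562-only (interval 11.7% to 15.1%), and without genes with a second copy 11.7%. The share was 29.7% in the fifth decile and peaked at 43.7% in the ninth, with 38.3% in the last. Promoter regions and regions outside promoters both showed the increase. At promoters the share was 9.20% in the first decile and 26.7% in the last, and outside promoters it was 17.0% and 49.2%. The median rank was 10156 for K562-only regions, against 7232 for the other K562 regions.

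Members were also narrower, though widths were not compared at equal rank. Whether this is separate from their later ranks was not tested. The median width was 321 bp for K562-only regions and 360 bp for the other K562 regions. At promoters the medians were 351 bp and 382 bp, and outside promoters 308 bp and 337.5 bp. Exactly 490 bp, the most common width of the list, was the width of 28.0% of K562-only regions and of 16.7% of the others. Regions of 1 site can be listed more than once: the 4953 members formed 4517 separate stretches, 920 members were overlapped by another K562 region, and 64 by a K562 region that was itself shared with HUDEP-2.

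Most members were well away from any HUDEP-2 region, and a minority lay beside one. The median gap from a K562-only region to the nearest region of the 3 HUDEP-2 lists was 9841 bp, with quartiles of 1717 bp and 37599 bp. It was 4643 bp for promoter members and 11530.5 bp for members outside promoters. A HUDEP-2 region lay within 1 kb of 20.03% of members, within 10 kb of 50.3% and within 100 kb of 89.4%. Promoter members had a near and a far part: 29.2% had a HUDEP-2 region within 500 bp, but only 59.5% had one within 10 kb. Outside promoters 8.39% had one within 500 bp.

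The rule has an edge at 1 bp of overlap and another at 1 kb from a start. Among shared K562 regions the least overlapped were those nearest to STAR (1 bp), SNAI1 (2 bp) and ROCK1 (2 bp), and among members those nearest to GSE1, JARID2 and TMEM235 had a gap of 0 bp. There were 113 members with a gap under 50 bp and 98 shared regions overlapped by fewer than 50 bp. At the promoter edge the farthest promoter members were those of ACVR1 (998 bp), AURKAIP1 (996 bp) and TTC6 (996 bp), and the nearest members outside were those of PAPD4 (1002 bp), ARAP3 (1006 bp) and PPP1R14A (1008 bp). The regions on the 2 sides of an edge thus differ by a few bases in the measure that the rule used.

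The best-ranked promoter members named 13 genes with varied roles. First came a region at rank 33, chr2:219543611-219544113, which lay within 1 kb of the starts of both CHPF, a chondroitin chain polymerising factor, and TMEM198. Its midpoint was at -97 bp from the nearer start (negative values are upstream) and the nearest HUDEP-2 region, of the BCL11A list, was 1331 bp away. NYAP1, which encodes a neuronal adaptor of phosphoinositide 3-kinase, had the member of rank 47 at chr7:100483004-100483825, 4220 bp from a WT region. The member of MYC, the growth-promoting transcription factor, had rank 120 at chr8:127735864-127736524, in its 5′ UTR exon, 1593 bp from a BCL11A region. These 3 regions stood high in the K562 order and had a HUDEP-2 region within a few kilobases.

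The next promoter members had gaps of very different size. At ANP32B, which encodes a nuclear histone chaperone, the member had rank 177 and a gap of 1355 bp. C12orf57 followed at rank 190 with a gap of 5674 bp. GABBR1, a subunit of the GABA-B receptor, had rank 191 and a gap of 2250 bp to a BCL11A region. GABBR1 lies in the histocompatibility stretch without WT or 195C>G regions. KEL, the gene of the Kell blood group glycoprotein of red cells, had rank 211 at chr7:142962062-142962625, in the 5′ UTR exon, with no HUDEP-2 region within 107545 bp. KEL has a second copy in the annotation, so this gap cannot be told apart from missing WT and 195C>G regions.

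CTCFL, the testis paralogue of the insulator protein CTCF, had a member of rank 240, 1249 bp wide, at chr20:57525653-57526901, with a gap of 8406 bp to a BCL11A region. MSH5, a meiotic recombination gene of the histocompatibility stretch, had rank 264 and a gap of 9554 bp. JADE2, a scaffold of the HBO1 histone acetyltransferase complex, had rank 313, a width of 1300 bp and a gap of 20444 bp. PHYKPL, which encodes a phospholysine lyase, had rank 354 with a gap of 16541 bp, and CERCAM, a cell adhesion gene, had rank 362 with a gap of 17615 bp. The gaps of JADE2, PHYKPL and CERCAM were larger than the median for promoter members, and none of these genes has a second copy.

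Outside promoters the nearest gene names a neighbourhood and not a target. The best-ranked member was at chr8:2733422-2734221 (rank 23), 688779 bp from the start of MYOM2, which encodes a muscle protein and has a second copy. Rank 26 was at chr4:1043456-1044248, 31388 bp downstream of the start of FGFRL1, a receptor-like binder of fibroblast growth factors, and 12577 bp from a BCL11A region. Members of rank 51 and 67 were nearest to TRIM7, a ubiquitin ligase gene (gap 3174 bp), and PDLIM7, a cytoskeletal adaptor gene (gap 5531 bp). An intron member of rank 72 near ATG9B, an autophagy gene, lay 501 bp from a BCL11A region. The distances to HUDEP-2 regions ranged widely even among these first ranks.

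Several of the top members outside promoters lay in introns. In TPM3, a tropomyosin gene whose products include one of the red cell skeleton, the member of rank 95 was at -3952 bp from the nearest start. ZNF608 had an intron member of rank 102 with a gap of 22406 bp, and a member of rank 122 was nearest to SOCS1, an inhibitor of JAK-STAT signalling, though 155564 bp from its start and 809 bp from a WT region. The remaining ones were nearest to LYZL2 (rank 134), KREMEN2 (rank 138), a gene of the Wnt pathway, DLGAP4 (rank 176) and PFKP (rank 179), the platelet-type phosphofructokinase gene. Their gaps were 50497 bp, 7021 bp, 68219 bp and 21061 bp. Of the 12 best-ranked members outside promoters, the one nearest to ATG9B had the smallest gap and the one nearest to MYOM2 the largest (92349 bp).

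Position within genes was similar for members and other K562 regions outside promoters, and differed somewhat at promoters. Outside promoters 45.5% of K562-only regions were in introns (interval 43.9% to 47.1%), against 44.8% of the other K562 regions (43.5% to 46.1%). Intergenic regions made up 47.8% and 48.2%, and coding exons 2.83% and 1.95%. The median distance to the nearest start was 19473 bp for members outside promoters and 16887.5 bp for other regions outside promoters. Promoter members sat a little farther from the start, with a median of 237 bp against 199 bp, and 45.4% (42.7% to 48.1%) against 50.2% (48.9% to 51.5%) within 200 bp. Fewer of them lay in 5′ UTR exons, 20.99% (18.85% to 23.26%) against 24.72% (23.63% to 25.85%) of other promoter regions. More lay in introns, 37.25% (34.67% to 39.89%) against 33.04% (31.84% to 34.26%).

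By chromosome, the share of K562 regions that were K562-only was highest on X (158 of 361, 43.8%), 4 (198 of 499, 39.7%) and 7 (387 of 1018, 38.0%). It was lowest on 13 (25 of 155, 16.1%) and 19 (327 of 1578, 20.7%). Chromosome 19 carries most zinc-finger genes of the ZNF type and had 3988 WT regions, the most of any chromosome.

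Members were spread unevenly along the chromosomes. Of 1332 windows of 1 Mb with a K562-only region, the median held 2 and 104 held at least 10. These counts include regions that overlap each other. They were not made for the whole K562 list, so whether members cluster more than K562 regions in general was not tested. The densest, chr9:136000001-137000000, held 47 members among 66 K562 regions, together with 21 WT, 16 195C>G and 42 BCL11A regions. The nearest genes there were TMEM250 (7 members), LHX3 (6), RABL6 (4), CARD9, EGFL7 and NOTCH1 (3 each), of which LHX3 is a homeobox gene of pituitary and motor neurons and EGFL7 a vascular gene. The next window, chr6:31000001-32000000, held 41 of 54 and had no WT or 195C>G region, with CLIC1, a chloride channel gene, nearest to 5 members; it lies in the histocompatibility stretch. The window chr7:100000001-101000000 held 36 of 65 beside 64 WT regions, with EPHB4, an ephrin receptor gene, and TSC22D4 nearest to 4 members each. In the chromosome 7 window K562-only and WT regions therefore stood side by side, which was not so in the chromosome 6 window.

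Some clusters without second copies sat in stretches free of WT and 195C>G regions, and were chosen after their values were seen. A K562 region in such a stretch is K562-only unless a BCL11A region overlaps it. The high K562-only counts here thus follow largely from the choice of stretch and are not a finding. At the HOXC cluster, chr12:53809517-54188508, the K562 list had 10 regions and 9 were K562-only, 1 of them at the HOXC10 promoter (rank 3998) and 1 at that of HOXC9 (rank 9955). Around HES1, the transcriptional repressor that Notch signalling induces, chr3:194003934-194150281 held 11 K562 regions, 9 of them K562-only. Those 9 reached from -65233 bp to 4762 bp relative to the HES1 start, and the best had rank 2093. At chr4:826193-1308985, all 16 K562 regions were K562-only, near TMEM175, IDUA, SLC26A1, FGFRL1 and SPON2, and the BCL11A list had 14 regions there. Some of these regions overlap each other: the K562-only ones formed 7 separate stretches of DNA at HOXC, 6 around HES1 and 12 on chromosome 4. The counts of listed regions thus exceed the number of separate sites at each place.

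Around single genes, 3157 genes were nearest to a member, 2085 of them to 1 member and 71 to 5 or more. BCOR, a gene of a Polycomb-type corepressor on X, was nearest to 13 K562-only and 6 shared regions, none of the 13 within 1 kb of its start. TNFAIP3, an inhibitor of NF-κB signalling, was nearest to 11 and 4, NTMT1, a protein methyltransferase gene, to 11 and 3, and HES1 to 9 and 5. QKI and CMIP had 9 members each beside 7 and 8 shared regions. KCNH2, a potassium channel gene, and TNRC18 had 8 each, and PTCH1, the Hedgehog receptor gene, had 7, of which 4 were promoter members. TRIM27 (12), ZBED9 (10) and PLCXD1 (7) have second copies. These counts are of listed regions, some of which overlap. The members counted for a gene can also lie far apart: they spanned 1177 kb for QKI and 796 kb for BCOR, but 29.7 kb for KCNH2. At most of these genes K562-only regions came in addition to K562 regions shared with HUDEP-2.

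At the level of genes, 1199 of 18069 NM genes off chromosome 11 (6.64%) had a K562-only promoter region, while 33.3% had any K562 promoter region. Among genes with a K562 promoter region the percentage with a K562-only one was 19.9%. Of the 1199, 270 also had a shared K562 promoter region, and 658 (3.64% of all genes, 54.9% of the 1199) had no HUDEP-2 region touching the 1 kb around any of their starts. Without genes that have a second copy, 1066 of 17318 genes (6.16%) had a K562-only promoter region. A WT region touched that window in 29.4% of the 1199 genes and in 46.5% of all genes. A BCL11A region touched it in 24.0% of the 1199 and 25.1% of all genes. The rule chose the 1199 genes by promoter regions that no HUDEP-2 region overlapped. Their shares with a HUDEP-2 region in the window, or with none, are thus shaped by the definition and are not a separate finding. For genes nearest to members outside promoters, WT regions touched the promoter window in 44.9% of cases, against 62.8% for the other K562 regions outside promoters, and K562 promoter regions were present in 47.3% and 50.3%. The WT contrast is not separate from the definition either, since members were chosen for lack of WT overlap. Near genes with a second copy, 248 of 318 K562 regions outside promoters were also members.

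The 15 gene lists below are read against the 6.64% of all genes with a K562-only promoter region. The lists were chosen with earlier results of these data known, and their intervals are not adjusted for the number of lists. A high share in a list is thus a description and not independent support. Developmental signalling had the highest share: 12 of 43 genes of the TGF-beta, Notch and Wnt list (27.9%, interval 15.3% to 43.7%) had such a region, and 9 of the 12 had no HUDEP-2 region in the promoter window. Without second copies this was 12 of 41 (29.3%). Of the 22 genes of the list with any K562 promoter region, 54.5% had a K562-only one, against 19.9% over all genes. This second share was not particular to the list. It was 71.4% for HOX genes (5 of 7), 75% for hepatocyte and neuron genes (3 of 4) and 50% for lymphoid genes (2 of 4). The median of their best ranks was 9956, against 9477 over all genes with a K562-only promoter region, and 5 of the 12 were in the first 50% of the list. They were therefore many but not highly ranked.

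By role, the ligands were JAG2 (rank 1955) and DLL4 (rank 7150), both of Notch. The receptors were NOTCH1 (rank 12110), the activin and BMP receptors ACVR1 (7567) and ACVR1B (10480), the co-receptor TGFBR3 (10718) and the Wnt receptor FZD1 (13411). Inside the cell were DVL1 (4524), a relay of Wnt receptors, SMAD3 (6565), a signal carrier of TGF-beta, and SMAD7 (14732), its inhibitor. The nuclear effectors were HES1 (9432) and TCF7L2 (15532). SMAD3, ACVR1 and ACVR1B also had shared K562 promoter regions and WT and 195C>G regions in the window, and the other 9 had none of the 3 HUDEP-2 lists there. JAG2, printed above, had its member at chr14:105168902-105169487, 11387 bp from a WT region.

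Most erythroid transcription factor genes had a K562 promoter region, 23 of 27 (85.2%) against 33.3% of all genes. A K562-only one was present at 3 (11.1%, interval 2.35% to 29.2%), and the interval includes the 6.64% of all genes. Of genes with a K562 promoter region, 13.0% on this list and 19.9% over all genes had a K562-only one. The 3 genes were MYC (rank 120), ZFPM1 (rank 1241), which encodes the GATA1 partner FOG1, and GFI1B (rank 16040), a repressor of erythroid and megakaryocyte development. The ZFPM1 member, chr16:88452482-88452880, had a BCL11A region 2815 bp away. The GFI1B member lay 11 bp from a WT region, and GFI1B also had a shared region of rank 3504. GFI1B is thus a member by a very small margin, and MYC and ZFPM1 are not.

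Fetal-stage regulators and γ-globin silencers gave a similar picture. K562 promoter regions were present at 18 of 27 genes, and 1 gene had a K562-only one (3.70%): HIC2, a repressor of BCL11A transcription in fetal cells, at rank 13048 and 13168 bp from a WT region. With a window of 500 bp HIC2 was no longer counted, since its midpoint was at -862 bp. Of 30 heme and iron genes, HMOX2 (rank 2652), ABCB6 (4873) and GLRX5 (13551) had a K562-only promoter region, and of 32 red cell membrane and surface genes, KEL (211) and BSG (12773). HMOX2 encodes a heme oxygenase, ABCB6 a porphyrin transporter, GLRX5 an iron-sulphur cluster protein and BSG the Ok blood group protein basigin. The ABCB6 member lay 235 bp from a BCL11A region and that of BSG 161 bp from a WT region, so these 2 were neighbours of HUDEP-2 regions. The shares were 10.0% and 6.25%, and both intervals include that of all genes.

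Lists for other lineages and the HOX list had lower observed shares of genes with any K562 promoter region than the 33.3% of all genes. The lists are small, and no intervals were made for these shares. Any such region was found at 4 of 26 megakaryocyte genes (15.4%), 3 of 24 myeloid genes (12.5%), 4 of 23 lymphoid genes (17.4%), 4 of 24 hepatocyte and neuron genes (16.7%) and 7 of 39 HOX genes (17.9%). No megakaryocyte gene had a K562-only promoter region (upper bound 13.2%). Of 24 myeloid genes 1 did, LYZ, the lysozyme gene (rank 7271), and of 23 lymphoid genes 2 did, NCR1, a natural killer receptor gene (rank 758, with a second copy), and LEF1 (rank 9436). LEF1, a Wnt effector of lymphocytes, was 171296 bp from any HUDEP-2 region. Of 24 hepatocyte and neuron genes TUBB3 (rank 2785), GAD1 (6348) and GRIN1 (12218) had one, all of them neuronal. HOX genes had 5 of 39 (12.8%, interval 4.30% to 27.4%), HOXC10, HOXB9, HOXB3, HOXC9 and HOXB5. None of the 5 had a HUDEP-2 region in the promoter window.

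Genes of signalling and growth were mixed. In the BCR-ABL list 5 of 35 (14.3%, interval 4.81% to 30.3%) had a K562-only promoter region: the kinase gene PIM1 (rank 3746), the survival gene BCL2L1 (5134), MAPK3 (7386), DOK1 (7615) and PIK3CD (15022). PIM1 and BCL2L1 members lay 121 bp and 210 bp from HUDEP-2 regions. In the AP-1 and immediate early list there were 3 of 26: ATF3 (rank 730), 51 bp from a 195C>G region, IER3 (893), in the histocompatibility stretch, and IER5 (2029). In the cell cycle and apoptosis list there were 3 of 38, CCND3 (rank 3479), BCL2L11 (10893) and CCNA2 (14027), and each had a HUDEP-2 region in its promoter window. Ribosomal protein genes had 3 of 57 (5.26%), RPL10A (rank 1111), RPL22 (7022) and RPL10 (7491), all without a HUDEP-2 region in the window. ZNF genes had 26 of 504 (5.16%, interval 3.40% to 7.47%), led by ZNF555 (rank 640) and ZNF236 (rank 3376). The intervals of all lists but the TGF-beta, Notch and Wnt list include the share of all genes.

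The DNA of the promoters was compared with the RefSeq table of 300-base windows (250 bases before and 50 after a start, GRCh38.p14). Of NM genes off chromosomes 8 and 11, 14396 of 17410 (82.7%) had a window, and 485 windows were overlapped by a K562-only region and by no other K562 region (HUDEP-2 regions elsewhere in a window were not considered). The median G and C content was 68.3% in these, 67.7% in 2816 windows with another K562 region and 62.7% in all windows, and the median CpG count was 29, 29 and 22. Among windows with a K562 region, median base composition was thus nearly the same for K562-only and other K562 windows.

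Motifs were sought on both strands. The ZBTB7A core GACCC was found in 63.7% of K562-only windows (interval 59.3% to 68.0%), 64.9% of windows with another K562 region and 52.2% of all windows. The ETS motif CCGGAA was found in 27.0% (23.1% to 31.2%), 35.9% (34.2% to 37.7%) and 22.8%. The KLF box CCNCNCCC, which can overlap a GC box, was found in 87.4% (84.1% to 90.2%), 80.6% (79.1% to 82.1%) and 67.1%. The TAL1-type E-box CAGNTG was found in 44.7% (40.3% to 49.3%), 38.0% (36.2% to 39.8%) and 47.0%. ETS, KLF and TAL1-type E-box shares had intervals that do not overlap between K562-only and other K562 windows, the ETS share being lower and the other 2 higher in K562-only windows. In the first 50% of the K562 list this held for the KLF box (91.3%, interval 86.4% to 94.8%, against 81.8%, 79.96% to 83.59%). The intervals there overlapped for ETS (29.2%, 22.95% to 36.15%, against 36.2%, 34.0% to 38.5%) and for the TAL1-type E-box (44.1%, 37.0% to 51.4%, against 36.8%, 34.6% to 39.1%).

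For the remaining motifs the K562-only and other K562 windows had overlapping intervals. GC boxes (GGGCGG) were in 80.2% and 79.1%, against 58.0% of all windows. GATA motifs (AGATAA or TGATAA) were in 7.22% and 6.21%, against 12.2% of all windows. AP-1 motifs (TGANTCA) were in 5.36% and 3.87%, NF-Y boxes (CCAAT) in 33.0% and 34.0%, MYC-type E-boxes (CACGTG) in 9.69% and 10.5%, and NRF1 motifs in 11.96% and 13.28%. A match is a description of letters and not a bound site. The windows were searched whole, so a counted match can lie outside the K562-only region, as in the printed NYAP1 and TMEM198 promoters.

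Of 1471 RefSeq miRNA hairpins off chromosome 11, 7 (0.476%) were overlapped by a K562-only region: MIR6089, MIR148B, MIR212, MIR4674, MIR223, MIR99B and MIRLET7E. The other K562 regions, of which there were 11379, overlapped 25 hairpins (1.70%). The mature sequences of 4 of them are shown because they include a myeloid miRNA and a member of the let-7 family, which restrains fetal-type gene expression and is itself blocked by LIN28B. Bases 2 to 8, the seed that pairs with target RNAs, are in capitals.
hsa-miR-223-3p: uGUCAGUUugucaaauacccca
hsa-let-7e-5p: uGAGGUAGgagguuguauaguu
hsa-miR-99b-5p: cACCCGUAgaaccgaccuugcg
hsa-miR-212-3p: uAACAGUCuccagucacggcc
The seeds of these 4 differ from each other. MIR223, a hairpin on X known from granulocytes, was overlapped by a member of rank 12245 that lay 2944 bp from a HUDEP-2 region. MIR99B and MIRLET7E lie next to each other on chromosome 19 and were overlapped by the same member, of rank 15511, with a gap of 1198 bp. MIR212, on chromosome 17 near HIC1, was overlapped by a member of rank 8612, and MIR4674 by the NOTCH1 promoter member. The best-ranked member over any of the 7 hairpins was that of MIR6089, at rank 6339, so none was near the head of the list. RefSeq places MIR6089 on both X and Y, so its absence from the WT and 195C>G lists is subject to the limit given above for second copies.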

How the data were processed

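ZBTB7A and BCL11A ChIP-seq gave 4 deposited region lists. The submitters' processing notes name Trimmomatic 0.3.2, the aligner Bowtie2 2.2.9, bedtools, Picard and Bowtie, with GRCh38 (hg38) as the build. Per the labels, a modified chromosome 11 underlies both HUDEP-2 ZBTB7A lists, so chromosome 11 was left out everywhere. The BCL11A list deposited by the authors gives a score per region. The WT and 195C>G lists deposited by the authors give a signal value and the −log10 of a false discovery rate per region, and these columns were used only to order regions within a list. The K562 list as deposited has no value, and its order served as rank. How controls entered the calls is not given.

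Identical regions were counted once and overlap meant at least 1 bp. Starts were those of NM transcripts in the authors' deposited annotation, and coordinates are 1-based. The gene lists, motifs and members were chosen with earlier results of these data known. Named genes were those of the 12 best-ranked promoter members and of the 12 best-ranked members outside promoters, the 2 best-ranked of each gene list, all erythroid and fetal-stage list genes with a member, the genes leading the 3 densest windows and the 3 regions on each side of each threshold. Further genes are named to give a list in full or as clusters chosen after their values were seen. RefSeq windows were matched to genes by accession, symbol or synonym, and 991 of 1161 genes with a K562-only promoter region off chromosomes 8 and 11 had one. No test between groups was run, since each list gives 1 set of regions per cell type, and all comparisons are descriptions with exact intervals. The overlap, gap and promoter steps were tested on simulated regions with known answers and recovered them. Work was done in Python 3.11.15 with pandas 2.3.3, numpy 2.4.6, scipy 1.17.1 and matplotlib 3.10.9. Alternatives were another overlap rule, weaker regions left out, other promoter windows, BCL11A left out, merged regions, and chromosome 19 or genes with a second copy left out.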

Additional observations from a re-analysis of the deposited data

How the results depend on the processing

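The number of K562-only regions was 4953. It was 8692 when a reciprocal overlap of at least 50% was asked for and 1801 in the first 50% of the K562 list, and it stayed within 1.5 times under the other alternatives that change it, with 3961 when a region within 1 kb counted as shared and 7400 with the stronger 50% of the other lists. The promoter share (27.3%) was 36.9% with reciprocal overlap, 21.3% with the 1 kb allowance, 32.6% with the stronger 50% of the other lists, 31.3% with the WT and 195C>G lists only, 26.0% with overlapping K562 regions merged, and 19.9% and 43.7% with promoter windows of 500 bp and 5 kb. Under every alternative the promoter share of K562-only regions was below that of the other K562 regions computed in the same way, which ranged from 42.4% to 62.9%. The K562-only share of the first decile (13.3%) was 18.5% with reciprocal overlap, 11.1% with the 1 kb allowance, 19.8% with the stronger 50%, 20.1% with the WT and 195C>G lists only and 11.7% without genes that have a second copy, an alternative chosen after seeing the data. Genes with a K562-only promoter region (1199) numbered 3003 with reciprocal overlap, 719 with the 1 kb allowance, 498 in the first 50% of the list, 2124 with the stronger 50% and 1865 with a 5 kb window. The median gap (9841 bp) was 399 bp with reciprocal overlap, where overlapping regions have a gap of 0, 16322 bp with the 1 kb allowance, 17656 bp with the stronger 50% and 17834 bp with the WT and 195C>G lists only. The reciprocal rule, the 1 kb allowance, the stronger 50% and the 2 ZBTB7A lists alone change by construction what counts as shared, whereas the promoter windows change what counts as a promoter and the first 50% of the list leaves fewer regions. Leaving out chromosome 19 kept every value within its counting error or within 1.5 times.

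Of 60 list and setting pairs, 41 kept their gene count within 1.5 times and 19 did not; the TGF-beta, Notch and Wnt list had 12 genes, 10 with the 500 bp window, 15 with the 5 kb window and 5 in the first 50% of the list. Of 10 motif shares, 8 stayed within their interval in the first 50% of the list; the KLF box share was 91.3% and the NRF1 share 8.72%. The ETS and TAL1-type E-box intervals of K562-only and other K562 windows, apart in the whole list, overlapped there. No paired analysis was possible because the K562 and BCL11A lists pool their replicates and the WT and 195C>G lists hold 1 library each, and for the same reason no replicate could be left out. Absence from a list cannot be told apart from a lack of depth.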
